A study of Brachypodium distachyon with 24 samples.

Results

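Genes of the vernalization and photoperiod pathways of flowering were followed in leaves of the grass *Brachypodium distachyon* under soil drying. They were taken by identifier, 6 of 32439 genes in the table: VRN1 (Bradi1g08340), FT1, also called VRN3 (Bradi1g48830), FT2 (Bradi2g07070), VRN2-like (Bradi3g10010), PPD1 (Bradi1g16490) and PHYC (Bradi1g08400). The table holds identifiers alone, so these names came with the list of genes and could not be checked in it. VRN2-like, PPD1 and PHYC had counts in all 24 libraries, whereas VRN1, FT1 and FT2 stood at a count of 0 in most of them. VRN2-like was lower in drought than in control in the F1 hybrid, with a mean of 4.99 against 10.6 CPM (CPM, the count of a gene relative to the TMM-scaled total of its library), the 1 call in 24 tests of VRN2-like, PPD1 and PHYC, in a comparison where 14.9% of all genes tested were called. It passed in 3 of 10 fits that each left out an F1 library, and did not pass when libraries were scaled by their totals alone. No member gave an allele ratio.

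In temperate grasses, flowering is timed by day length and by exposure to cold. PHYC is a phytochrome, a receptor of red and far-red light, and PPD1 is a pseudo-response regulator related to the circadian clock. In wheat and barley both promote expression of FT1 in long days. FT1 encodes florigen, a small protein that moves from the leaf to the shoot apex, and FT2 is a close relative of it. VRN2 of wheat and barley encodes a repressor of FT1 with a CCT domain. VRN1 is a MADS-box transcription factor that cold induces in cereals and that promotes flowering.

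RNA-seq libraries were made from leaves of F1 plants (5 under drought, 5 control), of the inbred accession Bd3-1 (3 drought, 5 control) and of the inbred accession Bd21 (3 drought, 3 control). The F1 came from a single direction of cross, with Bd3-1 as mother and Bd21 as pollen parent. Before planting, seeds of the accessions were held in the cold for several days to synchronize germination, and no separate seed treatment is given for the F1. From day 33 after sowing, drought plants were brought down to 55% of field capacity over 6 days while control plants were held at 85%, and all grew in 12 h light at 25 °C and 12 h dark at 20 °C. The study describes a harvest around midday and gives no separate time for the F1, so variation over the day was not followed. Soil drying of the F1 was a later, separate experiment, so that generation and experiment cannot be told apart where the F1 is set against the parents, and the experiment of the 2 Bd3-1 control plants beyond the 3 in the methods is not given in the sources used here.

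Libraries held between 6905973 and 42354206 counts, with a median of 21579369. The lowest totals were those of Bd21 drought replicate 2 and Bd21 control replicate 1, and among the F1 those of F1 drought replicates 5 and 4, with 10607196 and 12767706 counts. Treatment labels were checked with Bradi1g51770, which the study lists as a late embryogenesis abundant (LEA) gene among genes associated with drought response in Arabidopsis. It ranged between 12.9 and 101 CPM over 11 drought libraries and between 0 and 4.18 CPM over 13 control libraries. The study named it in a group of genes that varied together in Bd21 drought plants of its first experiment. That experiment also supplied parental plants here, so for the parents the gene was not chosen independently. The identifiers carry no annotation here, and the leaf label was therefore not checked against marker genes. P-values take individual plants as replicates. For edgeR the spread between plants within groups was estimated over all 6 groups in one fit.

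The table gives a count for each parental allele. The 2 allele columns of each of the 6 genes were equal in all 24 libraries, including the libraries of the inbred parents, with a largest difference of 0. For VRN1, FT1 and FT2 both columns were 0 in 19, 23 and 18 libraries. The study called variants from RNA-seq reads of Bd3-1. Equal columns of these 3 genes, which had few reads, therefore do not show that their alleles lack variants. None of the members (0 of 6) met the criterion for a distinguishable gene, own-allele counts above 1 with an opposing share under 20% in each inbred library, which 3403 genes met as applied here. The study, from which the criterion was taken, reports a larger number of genes. Equal columns cannot meet this criterion. Over the whole table, 10189 of the 27713 genes with any count had columns that differed in some library, 36.8%. Expression from the Bd3-1 and the Bd21 copy of these 6 genes was thus not separable, and the remaining results are totals of both alleles.

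Genes around the members differed in how far their alleles could be told apart. Among the 10 identifiers on each side, the share of genes with a count whose columns differed was 25.0% around VRN1 (5 of 20), 20.0% around FT1 (3 of 15), 58.8% around FT2 (10 of 17), 28.6% around VRN2-like (4 of 14), 26.3% around PPD1 (5 of 19) and 21.1% around PHYC (4 of 19). By the stricter criterion for a distinguishable gene, 6 genes were distinguishable around FT2, 1 around VRN1 and 0 around each of FT1, VRN2-like, PPD1 and PHYC. VRN1 and PHYC lie close together in identifier order, with 5 identifiers between them, so that their windows overlap. The identifier directly after the member had differing columns for VRN1 (Bradi1g08350), FT1 (Bradi1g48836), FT2 (Bradi2g07076) and PPD1 (Bradi1g16500). Both adjacent genes had equal columns for VRN2-like (Bradi3g10000 and Bradi3g10020) and for PHYC (Bradi1g08390 and Bradi1g08410).

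VRN2-like, the putative repressor, had 5198 counts in total. In the F1 under drought it reached 5.43, 5.17, 9.08, 2.58 and 2.68 CPM in replicates 1 to 5. In F1 control plants it reached 6.47, 12.4, 12.4, 9.64 and 11.9 CPM in replicates 1 to 5. In all, 4 drought plants lay below every control plant, whereas drought replicate 3 overlapped the control group, whose lowest plant was replicate 1. Group means were 4.99 ± 2.65 CPM in drought and 10.6 ± 2.54 CPM in control (SD, n = 5 each). The fold of drought over control was 0.478, a log2 fold change of -1.07 (SE 0.33, 95% interval -1.75 to -0.38, adjusted p = 0.0312 in the edgeR quasi-likelihood test). VRN2-like was the 1 member called of the 3 tested in this comparison, where 14.9% of the 22629 genes were called, 7.31% as lower in drought. At an unadjusted edgeR p under 0.05 stood 2 members, VRN2-like and PHYC, and 6185 of 22629 genes. For VRN2-like, a two-sided exact permutation test over the F1 libraries gave p = 0.0159, the smallest possible being 0.00794. After adjustment over 15 such tests it was 0.238. In bulk leaf RNA, fewer cells of a type and less RNA per cell cannot be told apart.

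The call depended on single plants and on the scaling. With 1 F1 library left out at a time, the log2 fold change stayed between -1.39 and -0.90, and 3 of 10 fits passed the threshold. It was lost without drought replicate 1 (log2 fold change -1.10), 2 (-1.08), 4 (-0.90) or 5 (-0.91) and without control replicate 2 (-1.0), 3 (-1.01) or 5 (-1.03), with edgeR adjusted p up to 0.0883. The lowest VRN2-like levels were those of drought replicates 4 and 5, the shallowest F1 libraries, which held 37 and 30 VRN2-like counts. Without both of these libraries the log2 fold change was -0.68 (edgeR adjusted p = 0.254).

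TMM factors ranged between 0.943 and 1.13 in F1 drought libraries and between 0.663 and 1.00 in F1 control libraries. When libraries were scaled by their totals alone, the median log2 fold change of all genes in this comparison was 0.36, against 0.04 with TMM, and the VRN2-like value was -0.81 (edgeR adjusted p = 0.0989). With totals alone 3514 genes were called higher and 863 lower in drought, against 1715 higher and 1655 lower with TMM. VRN2-like thus stayed below the median gene under both scalings.

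**Figure D1:**
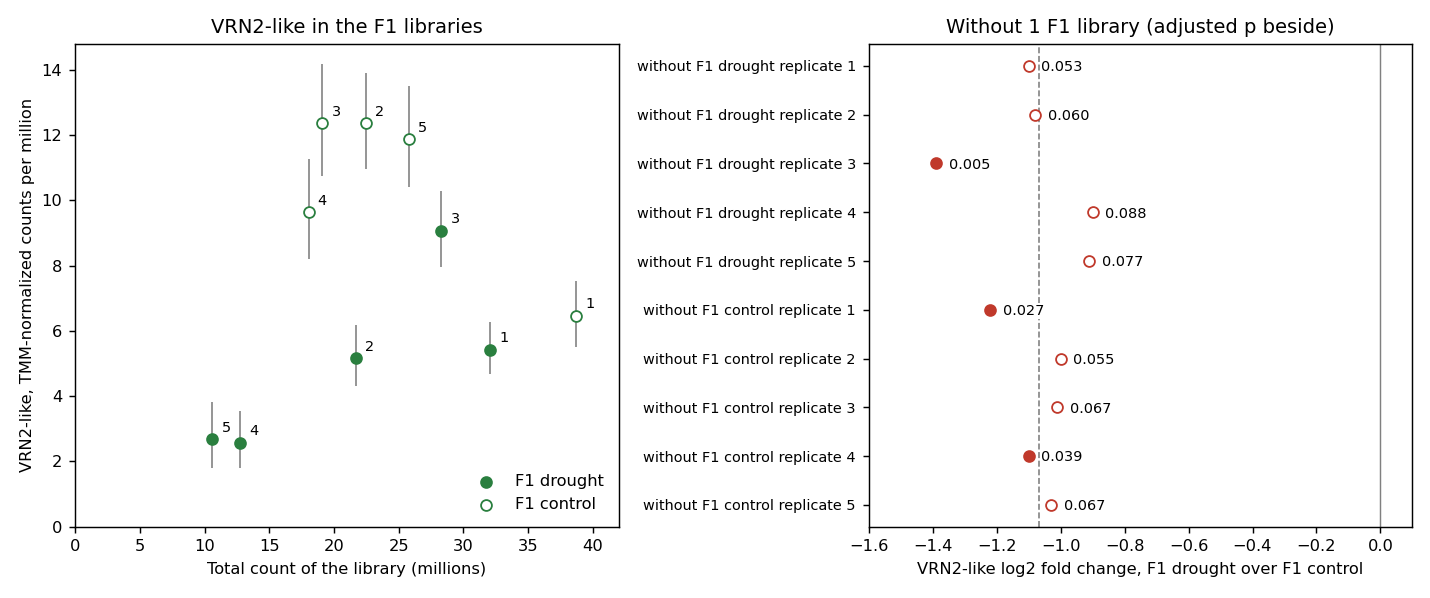
VRN2-like in the F1. Left, TMM-normalized CPM against the total count of the library, with filled points for drought, open points for control, replicate numbers beside them and 95% Poisson intervals of counting error as bars. Right, log2 fold change of drought over control with 1 F1 library left out, with the adjusted p beside each point (filled when under 0.05), the value from all libraries as the dashed line and 0 as the solid line. The 2 lowest points are the shallowest drought libraries, and 3 of 10 points on the right are filled.

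In the parents, VRN2-like differed between drought and control by less than the spread of the plants. Bd3-1 plants had 14.1, 12.1 and 12.3 CPM under drought, against 15.1, 10.7, 14.9, 6.91 and 11.8 CPM in control, and all 3 drought plants lay within the control range. Bd21 plants had 6.45, 8.72 and 13.1 CPM under drought, against 5.99, 14.5 and 9.10 CPM in control, again with full overlap. The log2 fold change of drought over control was 0.11 (95% interval -0.66 to 0.88) in Bd3-1 and -0.07 (-0.95 to 0.80) in Bd21. Changes within these intervals were not resolved in the parents. The difference between the F1 response and the mean of the parental responses was -1.09 (SE 0.43, unadjusted p = 0.0198, edgeR adjusted p = 0.603), where 0% of all genes were called. In this contrast, added after the data were seen, the F1 response was therefore not shown to differ from that of the parents.

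Between genotypes, group means of VRN2-like lay furthest apart under drought. The mean under drought was 4.99 ± 2.65 CPM in the F1 (n = 5), against 12.8 ± 1.09 CPM in Bd3-1 and 9.43 ± 3.39 CPM in Bd21 (SD, n = 3 each). In control it was 10.6 ± 2.54 CPM in the F1 (n = 5), against 11.9 ± 3.37 CPM in Bd3-1 (n = 5) and 9.87 ± 4.32 CPM in Bd21 (n = 3). All 5 F1 drought plants lay below all 3 Bd3-1 drought plants and overlapped the Bd21 drought plants. The share of all genes that separate so between the F1 and Bd3-1 is not given here. Against the mid-parent, the mean of the log2 levels of both parents, the F1 differed by -1.13 under drought (SE 0.32, edgeR adjusted p = 0.0723) and by -0.04 in control (SE 0.30, edgeR adjusted p = 0.968). The drought value missed the threshold, and none of the 3 members tested (0) passed it, where 1.85% of all genes did. At an unadjusted p under 0.05, 1 member passed, as did 3178 of 22629 genes. DESeq2 called 1 member, VRN2-like (-1.15, DESeq2 adjusted p = 0.0151), among 925 genes. Against single parents under drought the F1 value was -1.35 over Bd3-1 (edgeR adjusted p = 0.0654, with 1.65% of genes called) and -0.90 over Bd21 (edgeR adjusted p = 0.292, with 1.00% called). Both contrasts were added after the data were seen.

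PHYC, the photoreceptor, had 55814 counts. In the F1 under drought it reached 106, 100.3, 127, 66.5 and 103 CPM in replicates 1 to 5, against 139, 121, 139, 123 and 124 CPM in F1 control. Drought replicate 4 was the lowest of all 24 libraries, and 4 of 5 drought plants lay below every control plant. Means were 100.5 ± 21.7 CPM in drought and 129 ± 8.78 CPM in control (SD, n = 5 each), a log2 fold change of -0.36 (SE 0.15, 95% interval -0.67 to -0.05) that did not pass the threshold (edgeR adjusted p = 0.110). With 1 F1 library left out in turn the value ranged from -0.46 to -0.24. It passed without drought replicate 3, the highest drought plant (-0.46, edgeR adjusted p = 0.0378), and was smallest without drought replicate 4, the lowest (-0.24, edgeR adjusted p = 0.290). Without drought replicates 4 and 5 it was -0.22 (edgeR adjusted p = 0.471), and with totals alone as scaling -0.05. The two-sided exact permutation test of PHYC over the F1 libraries gave p = 0.032, and 0.238 after adjustment over 15 tests.

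In the parents PHYC did not separate by treatment. Bd3-1 drought plants had 95.4, 102.5 and 90.4 CPM, against 139.6, 101, 85.9, 117 and 95.6 CPM in Bd3-1 control. Bd21 drought plants had 80.9, 99.5 and 103 CPM, against 88.3, 92.9 and 98.5 CPM in Bd21 control. Drought and control plants overlapped in both accessions. The highest library was Bd3-1 control replicate 1, and F1 control had the highest group mean, 129 ± 8.78 CPM (n = 5), against 108 ± 21.1 CPM in Bd3-1 control (n = 5) and 93.3 ± 5.09 CPM in Bd21 control (n = 3). Over the mid-parent the F1 control value was 0.36 (SE 0.13, edgeR adjusted p = 0.166). Thus 0 of 3 members passed in control, where 1.27% of all genes did, and DESeq2 called 0 members. At an unadjusted p under 0.05 stood 1 member and 3907 of 22629 genes.

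PPD1, the pseudo-response regulator, was the member that varied least, with a coefficient of variation of 16.2% over 24 libraries and 40200 counts. It had 73.7, 84.2, 90.9, 45.5 and 79.2 CPM in F1 drought plants, against 67.7, 86.5, 80.3, 86.96 and 89.3 CPM in F1 control plants. As for PHYC, the lowest of all libraries was F1 drought replicate 4, which is among the shallow F1 libraries. The highest was Bd21 drought replicate 3 with 94.1 CPM. Group means were 74.7 ± 17.5 CPM in F1 drought, 82.2 ± 8.72 in F1 control, 78.9 ± 11.9 in Bd3-1 drought, 75.2 ± 13.01 in Bd3-1 control, 75.4 ± 17.5 in Bd21 drought and 78.07 ± 12.98 in Bd21 control (SD, n = 5, 5, 3, 5, 3 and 3). The highest mean was 1.10 times the lowest, less than the spread within groups. The log2 fold change of drought over control was -0.14 in the F1 (95% interval -0.50 to 0.22, edgeR adjusted p = 0.688), and its sign turned with totals alone as scaling (0.15).

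**Figure D2:**
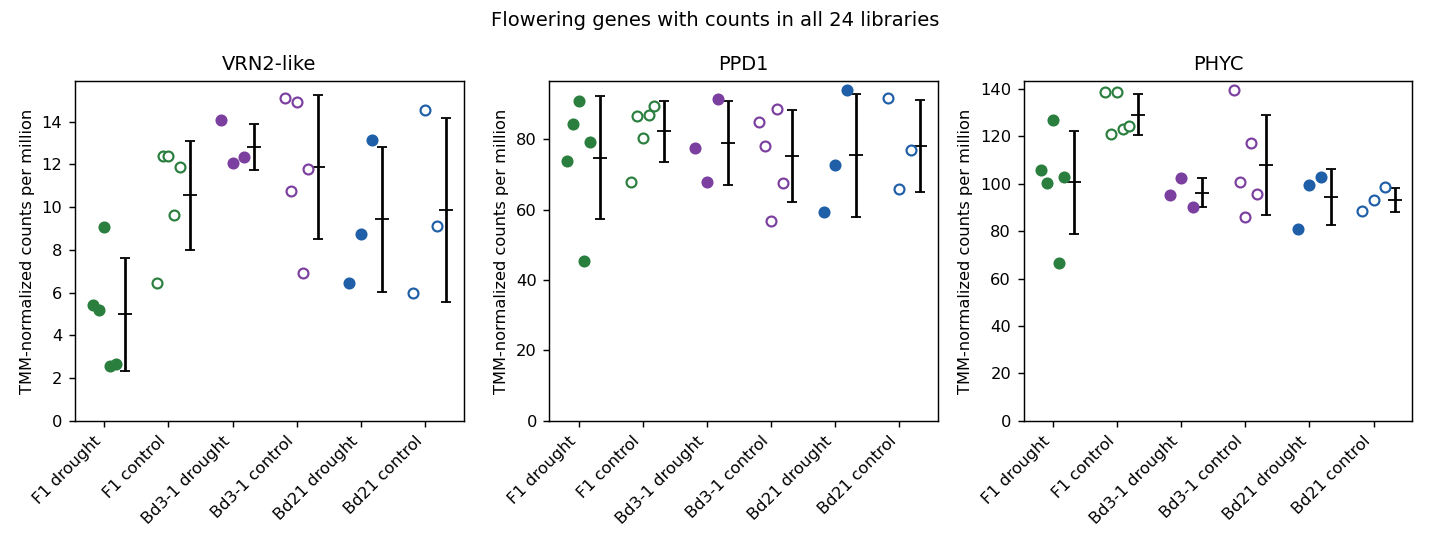
VRN2-like, PPD1 and PHYC in TMM-normalized CPM (vertical axis) by genotype and treatment. Each point is 1 library, filled for drought and open for control, and the black marks are the group mean ± SD. VRN2-like has its lowest group mean in F1 drought (4.99), PHYC its highest in F1 control (129), and the group means of PPD1 lie between 74.7 and 82.2.

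In the 5 contrasts among parental groups, none of the 15 tests of VRN2-like, PPD1 and PHYC passed (0), and the lowest edgeR adjusted p was 0.746. None had an unadjusted p under 0.05 (0), and DESeq2 called 0. The share of all genes called was 0.720% for drought in Bd3-1, 0.0972% for drought in Bd21, 2.51% for Bd3-1 over Bd21 in control, 1.86% for Bd3-1 over Bd21 under drought and 0% for G × E, the difference between the drought responses of the parents. Leaving out 1 library at a time gave between 36 and 321 genes for drought in Bd3-1, against 163 with all libraries, and between 2 and 13 for drought in Bd21, against 22. For G × E, 770 of 22629 genes had an unadjusted p under 0.05, and DESeq2 called 8. Members' log2 fold changes in these contrasts ranged between -0.18 and 0.44. The largest was that of VRN2-like in Bd3-1 over Bd21 under drought, 0.44 (95% interval -0.43 to 1.32). The G × E value of VRN2-like was 0.18 with a 95% interval of -0.99 to 1.35.

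**Figure D3:**
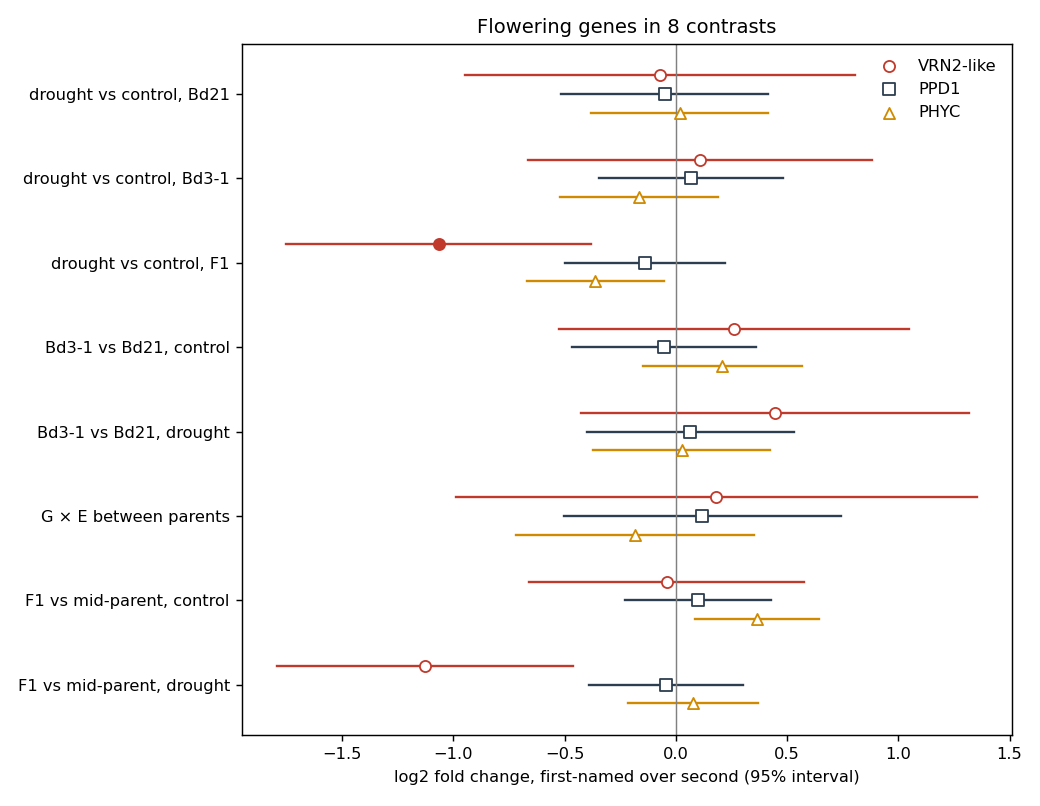
Log2 fold changes (horizontal axis) of VRN2-like, PPD1 and PHYC in 8 contrasts, the group named first over the second, with 95% intervals as lines. Filled points passed the threshold on the adjusted p. The only filled point is VRN2-like in F1 drought over F1 control, at -1.07.

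FT1, the florigen gene, was listed at 0 in 23 of 24 libraries. Its 5 counts all came from Bd3-1 drought replicate 1, at 0.151 CPM (95% Poisson interval 0.0490 to 0.352). A count of 0 allows a level of up to between 0.0652 and 0.369 CPM, depending on the depth of the library, and the only detection lies within these limits. FT1 was thus not detectable in these leaves at this depth and harvest time outside 1 library.

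FT2 had 47 counts in 6 libraries and 0 in 18. Bd3-1 control held most, with 11, 3 and 16 counts in replicates 2, 3 and 5, or 0.494, 0.177 and 0.824 CPM, and 0 in the other two. Beyond these, Bd3-1 drought replicate 2 had 2 counts (0.0435 CPM), Bd21 drought replicate 1 had 13 (0.376 CPM) and F1 drought replicate 2 had 2 (0.0841 CPM). FT2 was thus found in 4 of 8 Bd3-1 libraries, 1 of 6 Bd21 libraries and 1 of 10 F1 libraries. The difference between Bd3-1 and Bd21 had a two-sided Fisher's exact p of 0.301 (0.917 adjusted over 6 such tests). Counts came from 3 of 11 drought and 3 of 13 control libraries.

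VRN1 had 58 counts in 5 libraries and 0 in 19. A single plant, Bd3-1 control replicate 3, held 31 of them, at 1.83 CPM (95% Poisson interval 1.24 to 2.59), and the other 4 plants of its group had 0. Bd3-1 drought replicate 1 had 16 counts (0.483 CPM), F1 control replicate 1 had 5 (0.195 CPM), and Bd21 control replicates 2 and 3 had 3 each (0.188 and 0.114 CPM). The levels in Bd3-1 control replicate 3 and Bd3-1 drought replicate 1 lay above the limit of every library listed at 0. By contrast, the 3 lowest detections lay within the range of these limits. By treatment, counts came from 1 of 11 drought and 4 of 13 control libraries (two-sided Fisher's exact p = 0.327, 0.917 adjusted over 6 tests).

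Some count of VRN1, FT1 or FT2 was present in 10 libraries and none in 14. VRN1 and FT2 were found together in Bd3-1 control replicate 3, VRN1 and FT1 in Bd3-1 drought replicate 1, and FT1 and FT2 in none (0 libraries). These 3 genes did not pass the filter on low counts. In a fit of 27701 genes without that filter, 0 of 24 tests of them passed the threshold, with a lowest edgeR adjusted p of 0.339. An unadjusted edgeR p under 0.05 stood in 2 tests, both of FT2, Bd3-1 over Bd21 in control (0.0498) and G × E (0.0293). In the filtered fit 2598 and 770 of 22629 genes stood under 0.05 in these 2 contrasts.

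**Figure D4:**
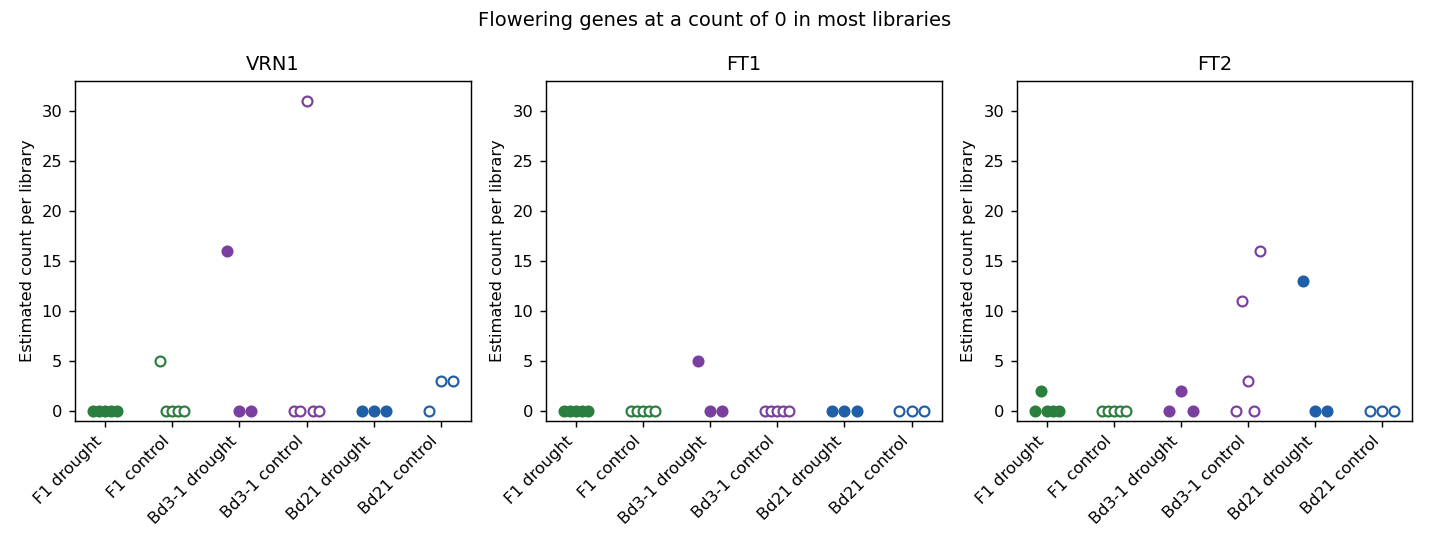
Estimated counts per library (vertical axis) of VRN1, FT1 and FT2 by genotype and treatment, with 1 point per library, filled for drought and open for control. Most points lie at 0, and the highest is 31 counts of VRN1 in a Bd3-1 control plant. Next are 16 counts of FT2 in another Bd3-1 control plant and 16 of VRN1 in a Bd3-1 drought plant.

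Across the 24 libraries, which share group differences and depth, log2(CPM + 1) of PPD1 and PHYC had a Pearson r of 0.60 (Spearman's rho 0.43, and r = 0.67 for deviations from the group means). Without F1 drought replicate 4, the lowest library for both, r was 0.41 over 23 libraries. VRN2-like had an r of 0.28 with PPD1 (rho 0.09) and of 0.32 with PHYC (rho 0.12). With the log2 total count of the library r was 0.25 for VRN2-like, 0.38 for PHYC and 0.00 for PPD1. These correlations are descriptions without a test.

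Among 19391 genes with a mean of at least 1 CPM, those most like VRN2-like in log2(CPM + 1) over the 24 libraries were Bradi1g24287 (r = 0.833, and 0.694 for deviations from the group means) and Bradi4g00740 (0.817, and 0.669 within groups). Those most like PHYC were Bradi1g22270 (0.914, and 0.892 within groups) and Bradi2g58040 (0.904, and 0.865 within groups). Those most like PPD1 were Bradi2g13640 (0.772, and 0.797 within groups) and Bradi3g46110 (0.736, and 0.777 within groups). Among the genes most like PPD1, PHYC stood at rank 101. The genes were picked as the highest of all these correlations, so their r is a description.

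The genes next to VRN2-like in identifier order did not share its call in the F1. Bradi3g10000 averaged 8.82 CPM in F1 drought and 7.35 CPM in F1 control (log2 fold change 0.26, SE 0.27, edgeR adjusted p = 0.610). Bradi3g10020 averaged 3.89 CPM in F1 drought and 6.65 CPM in F1 control (-0.78, SE 0.44, edgeR adjusted p = 0.272). The value of Bradi3g10020 had the direction of VRN2-like, and a difference between these 2 genes was not tested. Those next to PHYC did not pass either, with edgeR adjusted p of 0.125 for Bradi1g08390 and 0.127 for Bradi1g08410. The genes next to the low members differed in level. Bradi1g48828, beside FT1, and Bradi2g07060, beside FT2, had 0 counts, and Bradi1g08326, beside VRN1, had 7 counts in 1 library. Bradi1g48836, on the other side of FT1, had a median of 0.347 CPM. Bradi1g08350, beside VRN1, had a median of 61.8 CPM over the 24 libraries, and Bradi2g07076, beside FT2, of 31.5 CPM. In F1 drought over F1 control they differed by log2 fold changes of -0.45 and -0.81 (edgeR adjusted p = 0.0182 and 0.00590). Beside PPD1, Bradi1g16480 averaged 29.1 CPM in F1 drought and 9.12 CPM in F1 control, a log2 fold change of 1.67 (edgeR adjusted p = 0.00750), while Bradi1g16500 did not pass (edgeR adjusted p = 0.125).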

How the data were processed

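The authors made stranded poly(A) libraries from leaf RNA, aligned reads with Bowtie (1.2.2 in the submitters' notes) to a diploid transcriptome built from Bdistachyon_556_v3.2, and divided them between alleles with emase. They deposited estimated counts, not normalized, in 48 columns over 32439 genes. Genes without an allele-distinguishing variant have equal columns, and reads shared by near-identical genes are divided by emase. The 2 columns of a library were summed and rounded. A gene was kept where more than 10 libraries had a count of it above 0 (22629 genes). Kept genes were fitted with edgeR 4.0.16 in R 4.3.3 by the quasi-likelihood F-test with TMM factors, 1 coefficient for each of 6 groups and all 24 libraries in one fit. Benjamini-Hochberg adjustment of p ran over all genes kept, with a threshold of 0.05 (0.1 for G × E). CPM is the count over the TMM-scaled library total. Standard errors were derived from the F statistic.

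Exact two-sided permutation and Fisher tests were run in Python 3.11.15 (scipy 1.17.1, numpy 2.4.6, pandas 2.3.3), where matplotlib 3.10.9 drew the figures. Poisson intervals at 95% and limits of a count of 0 (3 counts) cover counting error only. Alternatives were DESeq2 1.42.0, RLE factors, library totals alone, other filters, fits of the compared groups, a replicate block and leaving out libraries. The 8 edgeR contrasts were tested on simulated data.

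The 6 genes and the comparisons were chosen with earlier results of these data known. Named besides them are, for each member kept, the 2 genes with the highest Pearson r of log2(CPM + 1) among genes of mean CPM of at least 1, and the adjacent identifiers. The reference table holds 31335 genes, and 0 matched an identifier of the file, so coordinates, lengths, sequences and further pathway genes are not given.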

Additional observations from a re-analysis of the deposited data

Results flagged for a closer look

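In 3 of 13 groups of 5, a single library stood apart because it alone had counts and the other 4 were listed at 0. Any count, however low, stands apart in such a group, so the chance rate of about 1 in 20 for this rule does not apply here and the number of cases says nothing about an excess. The cases are VRN1 in Bd3-1 control replicate 3 (1.825 CPM), VRN1 in F1 control replicate 1 (0.1948 CPM) and FT2 in F1 drought replicate 2 (0.08411 CPM). The FT2 value rests on 2 counts and the F1 value of VRN1 on 5 counts, whereas that of Bd3-1 control replicate 3 rests on 31.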

How the results depend on the processing

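The lower VRN2-like level in F1 drought kept its direction under every alternative run, between -1.39 and -0.68 on the log2 scale, but not its call. The number of members called in F1 drought over F1 control, 1 with all libraries, was 0 in a fit of the F1 groups alone, 0 with library totals alone as scaling and 0 without F1 drought replicates 4 and 5. It ranged between 0 and 2 when F1 libraries were left out in turn. For the F1 over the mid-parent under drought it was 1 with DESeq2, against 0 in edgeR, and between 0 and 1 with libraries left out in turn. The causes were not tested. The parental contrasts, G × E and the F1 over the mid-parent in control kept 0 members called under each alternative.

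Signs turned only for log2 fold changes that were not called. With library totals alone, drought over control was 0.03 for VRN2-like and 0.06 for PPD1 in Bd21, 0.04 for PHYC in Bd3-1 and 0.15 for PPD1 in the F1, Bd3-1 over Bd21 under drought was -0.01 for PHYC, and the F1 over the mid-parent was -0.12 for PPD1 in control and -0.01 for PHYC under drought. Without the 2 shallowest libraries, drought over control in Bd21 was 0.10 for PPD1 and -0.06 for PHYC, and PPD1 was 0.07 in Bd3-1 over Bd21 in control and -0.04 for G × E. Without F1 drought replicates 4 and 5, PPD1 was 0.01 in F1 drought over F1 control and 0.11 for the F1 over the mid-parent under drought. PHYC in Bd3-1 over Bd21 under drought was -0.01 with RLE factors and -0.01 with DESeq2. Totals alone and both settings without several libraries were chosen after seeing the data. So were the contrasts of the F1 response with the parental mean and of the F1 with single parents.

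With 1 library left out in turn, drought over control ranged from -0.39 to 0.31 (VRN2-like), -0.24 to 0.10 (PPD1) and -0.05 to 0.12 (PHYC) in Bd21, and from -0.05 to 0.21 (VRN2-like) and -0.05 to 0.17 (PPD1) in Bd3-1. Bd3-1 over Bd21 ranged from -0.16 to 0.07 for PPD1 in control, and under drought from -0.08 to 0.26 for PPD1 and -0.07 to 0.09 for PHYC. G × E ranged from -0.20 to 0.50 for VRN2-like and from -0.03 to 0.31 for PPD1. The F1 over the mid-parent ranged from -0.18 to 0.15 for VRN2-like in control, and under drought from -0.13 to 0.09 for PPD1 and from -0.02 to 0.19 for PHYC.

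Replicate numbers did not pair the plants: deviations of same-numbered drought and control libraries correlated between -0.15 and 0.10, and 2 of 11 drought libraries correlated best with their own number. With the replicate block VRN2-like was -1.18 in F1 drought over F1 control (edgeR adjusted p = 0.0158), -0.06 in Bd3-1 drought over control and 0.10 for the F1 over the mid-parent in control, and no member's call changed.

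DESeq2 called more genes than edgeR: 220 against 22 for drought in Bd21, 726 against 163 in Bd3-1, 936 against 569 and 718 against 422 for Bd3-1 over Bd21 in control and drought, and 967 against 288 and 925 against 419 for the F1 over the mid-parent in control and drought. Without F1 drought replicates 4 and 5, the F1 drought comparison fell to 1464 genes, against 3370. Allele ratios and the cis term were not run, since no member's allele columns differed. Counts of 0 of VRN1, FT1 and FT2 allow up to 0.369 CPM in the shallowest library, and less in deeper ones.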
